A study of Mus musculus with 7 samples.

Results

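The genes described here make, bind, sense or break down retinoic acid, and were taken by symbol from a list of 10: *Rdh10*, *Aldh1a1*, *Aldh1a2*, *Cyp26a1*, *Cyp26b1*, *Crabp1*, *Rara*, *Rarb*, *Rarg* and *Rxrb*. Of these, 9 have a row in a table of 20643 genes, and *Cyp26a1* has none. The table comes from directional total RNA-seq of EGFP+ prospermatogonia, the mitotically arrested male germ cells of the fetal testis, sorted at 15.5 dpc by the labels' protocol (15 dpc in their source name). Genotypes were *H19*Ter+neo/*H19*Ter+neo with 3 libraries (numbered 5, 6 and 7 in the labels), *H19*Ter/*H19*Ter with 2 (numbered 3 and 4) and WT with 2 (numbered 1 and 2). They are called Ter+neo, Ter and WT below.

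Both mutants are homozygous for an RNA terminator cassette placed beside the imprinting control region of the *H19/Igf2* domain. The Ter+neo allele keeps the Pgkneo selection cassette, which Cre removed from the Ter allele. Both alleles come from targeted 129SI ES cells, and the chimeras were obtained from a single ES cell line. Mutant fetuses carried the TgOG2 transgene, in which the *Pou5f1* promoter drives EGFP, and came from crosses between homozygotes, so that genotype and litter cannot be told apart. The sources used here do not describe how the WT fetuses were bred. Testes of several fetuses could be digested together. Libraries held 84.1 to 87.3 M read pairs in Ter+neo, 37.5 and 51.2 M in Ter, and 45.1 and 45.9 M in WT. Nothing ties a library to 1 animal, so the p-values measure only the spread between these libraries.

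Retinoic acid is made from retinol in a pair of oxidation steps, the first by retinol dehydrogenases such as RDH10 and the second by the retinaldehyde dehydrogenases of the ALDH1A family, and it is degraded by CYP26 enzymes. Inside the nucleus it binds RAR receptors, which pair with RXR receptors on DNA and switch target genes on. In the fetal mouse gonad, retinoic acid is linked to the entry of female germ cells into meiosis, and CYP26B1 made by somatic cells of the testis keeps it low around male germ cells.

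The largest change from WT among the retinoic acid genes was a higher level of *Rarb*, a receptor gene, in both mutants than in WT: 4.64-fold in Ter+neo and 3.66-fold in Ter. *Crabp1* and *Aldh1a2* were also higher than WT in both mutants, and *Rxrb* was lower in both. *Rara* was lower in Ter+neo than in either other genotype. A gene was called changed at an adjusted p (limma, Benjamini-Hochberg over all genes) under 0.05. Against WT, 5 of the 9 genes were called in Ter+neo (3 higher, 2 lower), beside 54.4% of all genes tested, and 5 of 9 in Ter (4 higher, 1 lower), beside 25.1% of all genes. Between Ter+neo and Ter, 4 of 9 were called (2 higher, 2 lower), beside 27.7% of all genes. Libraries of the genotypes compared did not overlap for 6 of 9 genes in Ter+neo against WT, 7 of 9 in Ter against WT and 5 of 9 between the mutants, beside 71.8%, 67.5% and 56.3% of all genes. In Ter against WT the count became 1 (*Rarb*) without WT replicate 2 (beside 6.82% of all genes), without Ter replicate 4 (9.17%) or with no mean-variance trend (13.8%), and 2 without Ter replicate 3 (10.9%). Between the mutants it became 2 (*Crabp1* and *Rara*) without Ter replicate 3 (11.3%) or 4 (14.5%), with no trend (18.5%) or with a GC and length trend removed (24.1%). The median log2 fold change of the 9 genes was 0.05 in Ter+neo, beside 0.01 over all genes, and 0.33 in Ter, beside -0.01.

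**Figure D1:**
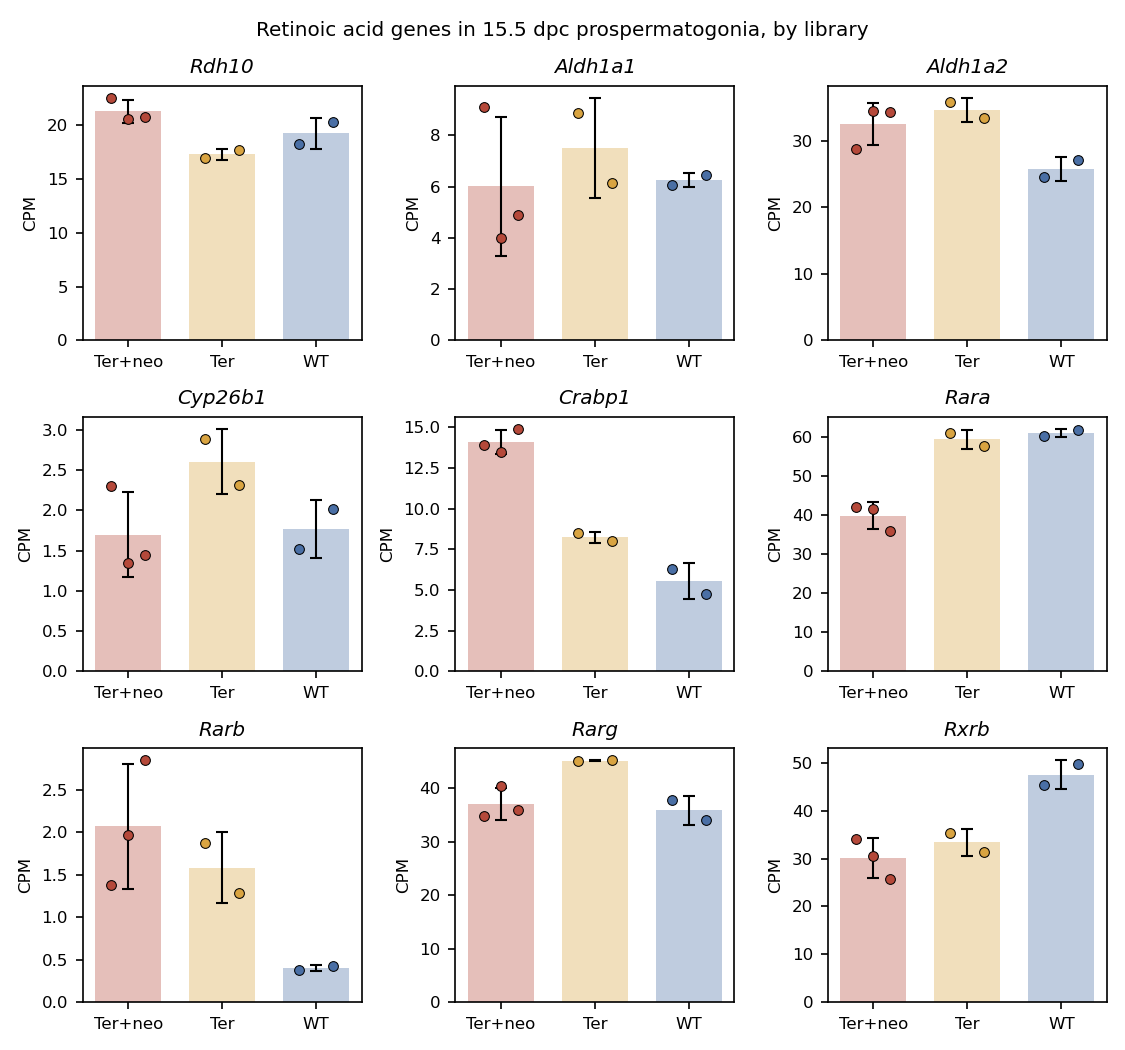
Level of each retinoic acid gene in CPM (read pairs per M after scaling, y axis from 0) in Ter+neo (3 libraries), Ter (2) and WT (2). Points are libraries, bars are means and error bars are SD. *Rarb* lies between 1.29 and 2.85 CPM in the mutant libraries, all above the WT libraries at 0.380 and 0.427 CPM.

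*Rarb* encodes retinoic acid receptor beta, whose gene is a textbook target of retinoic acid itself. It lies on chromosome 14 at 16430839 to 16819156 on the minus strand (GRCm38). Its level was 1.39, 1.97 and 2.85 CPM (read pairs per M after scaling for library composition) in Ter+neo and 1.88 and 1.29 CPM in Ter, against 0.380 and 0.427 CPM in WT. These values rest on 113 to 246 read pairs in Ter+neo, 50 and 100 in Ter, and 17 and 19 in WT. Every mutant library was above both WT libraries, while the libraries of the mutants overlapped each other. The log2 fold change was 2.21 ± 0.31 (SE) in Ter+neo against WT (limma, adjusted p = 0.000241) and 1.87 ± 0.34 in Ter against WT (adjusted p = 0.00474). Among the fold changes of all genes, these were above 97.9% and 98.1% of genes. Between Ter+neo and Ter the log2 difference was 0.34, with a 95% interval of -0.35 to 1.03 (adjusted p = 0.44).

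Both calls of *Rarb* against WT held in every recomputation that tested the gene, with log2 fold changes of 1.96 to 2.47 in Ter+neo and 1.60 to 2.14 in Ter. *Top2b*, on the opposite strand, overlaps 2020 of the 5265 exonic bases of *Rarb*, and the sources used here do not say whether the deposited counts use strand. *Top2b*, a topoisomerase gene, had 49.5, 35.7 and 41.6 CPM in Ter+neo, 44.3 and 42.4 CPM in Ter, and 45.1 and 54.6 CPM in WT, and was not called in any of the 3 comparisons.

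A *Rarb* promoter is shown because RAR and RXR bind a DR5 retinoic acid response element, a direct repeat of receptor half-sites with 5 bases between them, and because *Rarb* had the largest change from WT. Promoters were taken from RefSeq (GRCm38.p6) as 250 bases before to 50 bases after each start and searched on both strands. The 250 bases before a *Rarb* start, chr14:16575477-16575726 on the minus strand, hold such an element in capitals, 53 to 37 bases before that start. This start lies inside the gene, which begins at 16819156 on its strand. The counts are per gene, and which start the *Rarb* read pairs came from was not tested. *Cyp26a1*, which encodes a retinoic acid degrading enzyme and has no row in the table, is shown beside the *Rarb* promoter as the other promoter of the list that holds an element, at chr19:37697558-37697807 on the plus strand. There the element lies on the opposite strand, 32 to 16 bases before the start.
*Rarb*: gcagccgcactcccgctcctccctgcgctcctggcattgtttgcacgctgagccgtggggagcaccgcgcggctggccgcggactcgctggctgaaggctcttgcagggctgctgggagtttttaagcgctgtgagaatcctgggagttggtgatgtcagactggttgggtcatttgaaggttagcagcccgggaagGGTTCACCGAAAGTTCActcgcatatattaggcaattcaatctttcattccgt
*Cyp26a1*: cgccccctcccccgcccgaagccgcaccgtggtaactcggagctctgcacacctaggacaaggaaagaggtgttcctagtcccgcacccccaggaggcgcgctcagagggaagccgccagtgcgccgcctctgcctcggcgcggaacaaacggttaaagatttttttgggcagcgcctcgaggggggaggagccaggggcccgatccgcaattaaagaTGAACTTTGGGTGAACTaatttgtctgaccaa

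The promoter table held 15 promoters of 9 of the listed genes (none of *Rdh10*), and 2 of the 15 held the element, against 0.0974% of 32851 promoters searched. The list was chosen for the retinoic acid pathway and searched for the element of its receptors. The difference in these shares is therefore not a result of these data. Among all promoters, 31 genes held the element, of which 6 had a row. Of those 6, *Rarb* prompted the search by its change, so it is set apart. Of the others, *Cfap45* and *Gm1043* were higher than WT in both mutants and *Blvrb*, *Prokr2* and *Tnfsf13b* were not called, all named after their values were seen. Over all genes tested, 27.7% were called higher in Ter+neo and 14.1% in Ter. A match describes the letters of the window and is not a measured binding site.

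*Rara*, the receptor gene with the highest level per kb of exon in WT, was lower in Ter+neo. It lies on chromosome 11 at 98927818 to 98974942 on the plus strand. Its level was 42.0, 41.7 and 35.9 CPM in Ter+neo and 61.1 and 57.7 CPM in Ter, against 60.3 and 61.7 CPM in WT. All Ter+neo libraries were below all others, and the Ter and WT libraries overlapped. The log2 fold change was -0.62 ± 0.08 in Ter+neo against WT (limma, adjusted p = 0.000188) and -0.58 ± 0.08 in Ter+neo against Ter (adjusted p = 0.00098), and both calls held in all alternatives. In Ter against WT it was -0.04, with a 95% interval of -0.24 to 0.16 (adjusted p = 0.783).

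*Rarg*, the gene of the third retinoic acid receptor, was highest in Ter. It had 34.9, 40.4 and 35.9 CPM in Ter+neo and 45.1 and 45.2 CPM in Ter, against 37.8 and 34.0 CPM in WT. The Ter libraries were above all others, and Ter+neo and WT overlapped. The log2 fold change was 0.33 ± 0.09 in Ter against WT (limma, adjusted p = 0.0286) and -0.29 ± 0.09 in Ter+neo against Ter (adjusted p = 0.032). Neither call was stable. The one against WT was lost without Ter replicate 3 (adjusted p = 0.111), Ter replicate 4 (0.124) or WT replicate 2 (0.206), with limma voom (0.0551) or with no mean-variance trend (0.0912). The one between mutants was lost without either Ter replicate, without Ter+neo replicate 5 or 7, with no mean-variance trend (0.0931), or once a trend with GC content and length was removed (log2 fold change -0.12, adjusted p = 0.294).

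*Rxrb*, whose product is an RXR partner of the RAR receptors, was lower in both mutants. It had 34.1, 30.6 and 25.7 CPM in Ter+neo and 35.3 and 31.4 CPM in Ter, against 45.4 and 49.6 CPM in WT. All 5 mutant libraries were below both WT libraries. The log2 fold change was -0.66 ± 0.12 in Ter+neo (limma, adjusted p = 0.000827) and -0.51 ± 0.13 in Ter (adjusted p = 0.0167). The call in Ter+neo held in all alternatives, and that in Ter was lost without Ter replicate 4 (adjusted p = 0.12) or WT replicate 2 (0.134) or with no mean-variance trend (0.0767). The mutants differed by -0.15, with a 95% interval of -0.41 to 0.10.

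**Figure D2:**
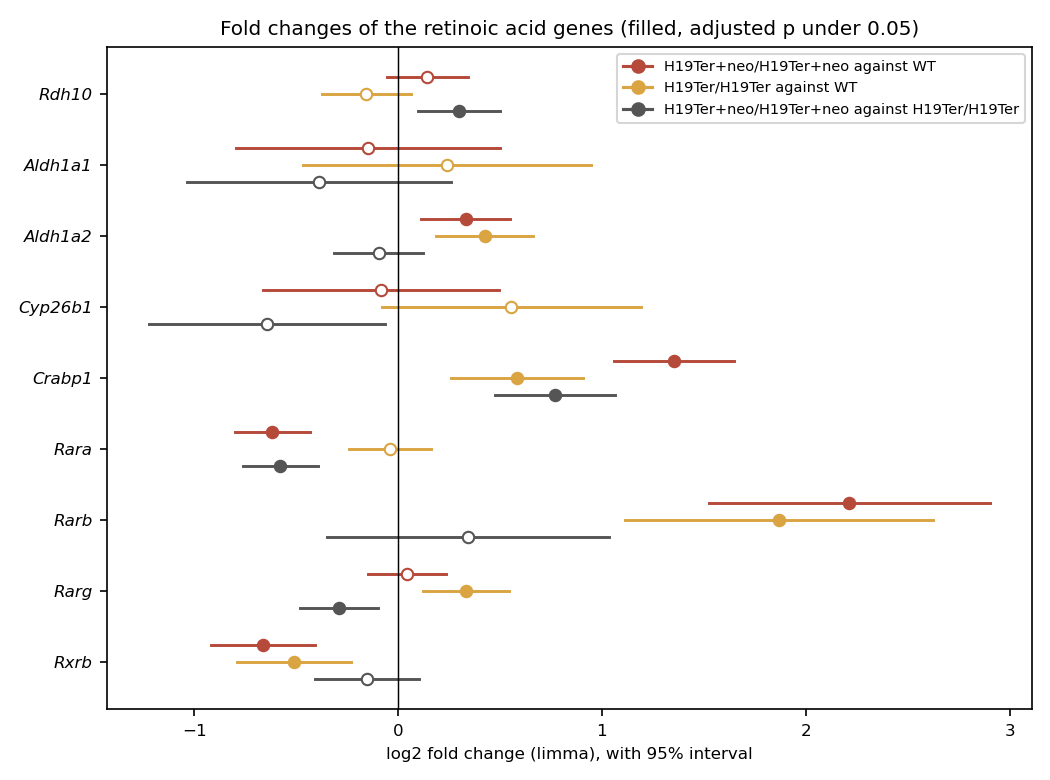
Log2 fold change (limma, x axis) of each retinoic acid gene in Ter+neo against WT (top of each set), Ter against WT (middle) and Ter+neo against Ter (bottom). Lines are 95% intervals and filled points passed an adjusted p under 0.05; *Rarb* lies farthest to the right, at 2.21 and 1.87.

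*Crabp1*, the gene of a cytosolic protein that binds retinoic acid, had a graded order of Ter+neo, Ter and WT. Its level was 13.9, 13.5 and 14.9 CPM in Ter+neo and 8.49 and 8.00 CPM in Ter, against 6.32 and 4.76 CPM in WT. No library of 1 genotype overlapped those of another. The log2 fold change was 1.36 ± 0.13 in Ter+neo against WT (limma, adjusted p = 3.37e-05), 0.58 ± 0.15 in Ter against WT (adjusted p = 0.0174) and 0.77 ± 0.13 in Ter+neo against Ter (adjusted p = 0.00252). Both calls of Ter+neo held in all alternatives. The call of Ter against WT was lost without Ter replicate 3 (adjusted p = 0.0911), Ter replicate 4 (0.0684) or WT replicate 2, where the log2 fold change was 0.38 (adjusted p = 0.141), and with no mean-variance trend (0.0525).

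Among genes with at least 20 read pairs in every library, *Crabp1* had the widest range of the listed genes, 1.64 on the log2 scale. The 3 genes of the table whose pattern over the 7 libraries was most like it, by the root mean square difference of log2 values centred on each gene's mean, were *4930440I19Rik* (0.08), ENSMUSG00000105139 (0.09) and *Bhlhe41* (0.09).

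Of the synthesis genes, *Aldh1a2* was higher in both mutants and the others were not called against WT. *Aldh1a2*, the gene of the main retinaldehyde dehydrogenase of the early embryo, had 28.8, 34.5 and 34.3 CPM in Ter+neo and 35.9 and 33.4 CPM in Ter, against 24.5 and 27.1 CPM in WT. All mutant libraries were above both WT libraries, the nearest being Ter+neo replicate 5. The log2 fold change was 0.33 ± 0.10 in Ter+neo (limma, adjusted p = 0.0157) and 0.43 ± 0.11 in Ter (adjusted p = 0.0184). The call in Ter+neo was lost without WT replicate 1 (0.26, adjusted p = 0.124) or with no mean-variance trend (0.0538). The call in Ter was lost without any 1 of the Ter or WT libraries (adjusted p of 0.0633 to 0.109) or with no trend (0.0721).

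*Rdh10*, which encodes a retinol dehydrogenase, had 22.5, 20.6 and 20.8 CPM in Ter+neo and 16.9 and 17.7 CPM in Ter, against 18.3 and 20.3 CPM in WT. The Ter+neo libraries were the highest and the Ter libraries the lowest, with no overlap between genotypes. Only the difference between the mutants was called, with a log2 fold change of 0.30 ± 0.09 (limma, adjusted p = 0.0327). It was lost when libraries were scaled to the same total (0.23, adjusted p = 0.0691), without either Ter replicate (0.181 and 0.101), without Ter+neo replicate 5 (0.0755), with no mean-variance trend (0.0659) and with a GC and length trend removed (0.0504). Against WT the log2 differences were 0.14 in Ter+neo (95% interval -0.06 to 0.34) and -0.16 in Ter (-0.37 to 0.06).

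*Aldh1a1*, a second retinaldehyde dehydrogenase gene, varied within the mutants more than between genotypes. It had 9.11, 4.01 and 4.91 CPM in Ter+neo and 8.88 and 6.14 CPM in Ter, against 6.05 and 6.45 CPM in WT. Ter+neo replicate 5 and Ter replicate 3 were highest. The log2 difference from WT was -0.15 in Ter+neo (95% interval -0.79 to 0.50) and 0.24 in Ter (-0.47 to 0.95), and neither was called. Without Ter+neo replicate 5 the gene was called lower in Ter+neo than in WT (-0.49, limma, adjusted p = 0.0439) and than in Ter (-0.73, adjusted p = 0.0151).

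The breakdown gene *Cyp26b1* was low in all libraries. It had 2.31, 1.34 and 1.45 CPM in Ter+neo and 2.89 and 2.32 CPM in Ter, against 1.52 and 2.02 CPM in WT, on 68 to 188 read pairs a library. Both Ter libraries were above all others, by little over Ter+neo replicate 5. The log2 difference was -0.09 in Ter+neo against WT (95% interval -0.66 to 0.49), 0.56 in Ter against WT (-0.08 to 1.19) and -0.64 in Ter+neo against Ter (-1.22 to -0.06, limma adjusted p = 0.0926). The last was called without Ter+neo replicate 5 (-0.88, adjusted p = 0.0196).

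*Aldh1a1*, and within each mutant also *Cyp26b1*, was highest in the libraries with the most fetal Leydig cell marker RNA. The summed level of 5 of 6 listed Leydig markers, led by *Cyp17a1*, *Cyp11a1* and *Star*, was 29.6, 7.36 and 5.55 CPM in Ter+neo and 26.7 and 11.8 CPM in Ter, against 12.0 and 16.1 CPM in WT. None of these 5 genes was at 0 in any library. Ter+neo replicate 5 and Ter replicate 3 stood above the other 5 libraries. The same libraries were also highest within their genotype in the sums of Sertoli markers (34.2 and 37.8 CPM) and of interstitial and peritubular markers (73.2 and 108 CPM). The part of any of these cells in the levels of both genes was not tested. Without these 2 libraries, 6 of the 9 retinoic acid genes were called in Ter+neo against WT (beside 53.1% of all genes), 2 (*Rarb* and *Rxrb*) in Ter against WT (17.2%), and 2 (*Crabp1* and *Rara*) between the mutants (12.4%). In such bulk samples, fewer cells of a type and less RNA per cell cannot be told apart.

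**Figure D3:**
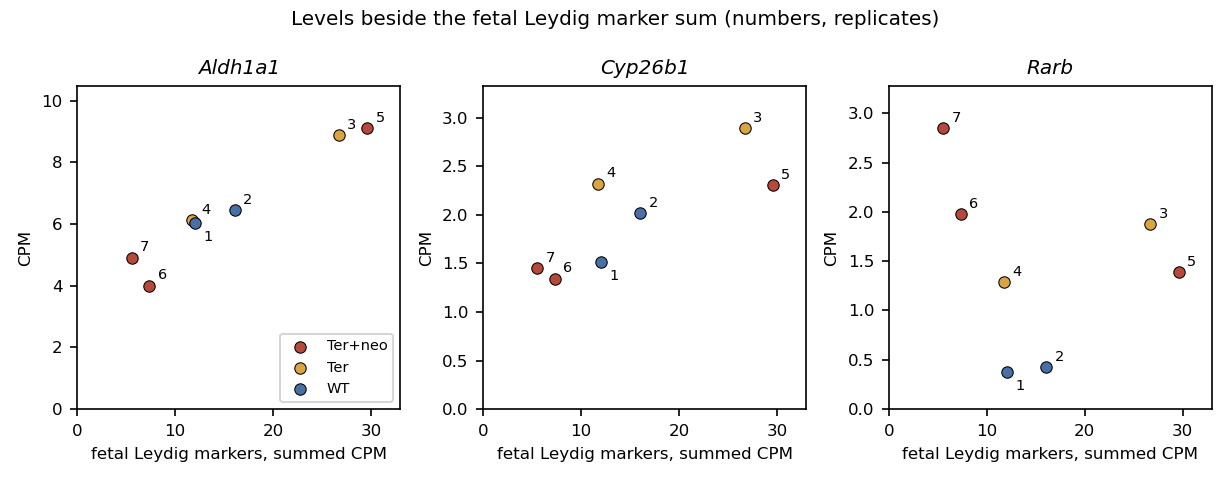
Level of *Aldh1a1*, *Cyp26b1* and *Rarb* (CPM, y axes from 0) against the summed CPM of 5 fetal Leydig cell markers (x axis) in the 7 libraries, numbered by replicate. *Aldh1a1* is highest, at 9.11 and 8.88 CPM, in the libraries with marker sums of 29.6 and 26.7. The highest *Rarb* level, 2.85 CPM, is in the Ter+neo library with the lowest sum, 5.55. Within Ter (1.88 and 1.29 CPM) and within WT (0.427 and 0.380 CPM), *Rarb* is higher in the library with the higher sum. The part of Leydig cells in the *Rarb* level was not tested.

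Germ cells made up the labelled cell type, and all 11 listed male germ cell markers, *Dazl*, *Ddx4* and *Dnd1* among them, were present, with sums of 4286 to 4468 CPM in Ter+neo, 3745 and 3855 in Ter, and 3844 and 3979.9 in WT. The sums hide members that moved apart, with 5 higher and 3 lower in Ter+neo than in WT, and 3 higher and 4 lower in Ter. Over all genes, 54.4% and 25.1% were called in either direction. In Ter, the calls of *Dazl*, *Ddx4*, *Dnd1* and *Piwil4* were lost with no mean-variance trend (limma, adjusted p of 0.0538 to 0.0795). Each was also lost on leaving out at least 1 library. *Dnmt3l*, a cofactor of de novo DNA methylation, had 79.4 to 100.0 CPM in Ter+neo and 94.3 and 85.9 in Ter, against 43.2 and 35.7 in WT. *Nanos2*, an RNA-binding factor of the male germ line, had 20.9 to 33.5 CPM in Ter+neo and 41.3 and 39.9 in Ter, against 56.4 and 59.3 in WT. Both genes were called in both mutants. The call of *Nanos2* in Ter (limma, adjusted p = 0.0481) was lost without any 1 of the Ter or WT libraries, with the same total per library (0.0952), limma voom (0.0729), no mean-variance trend (0.149) or a mean log2 value of at least 1 (0.0523). As a sum, endothelial markers were higher in every mutant library than in WT, as *Rarb* was. The sum of 6 of 6 genes, such as *Cdh5*, *Kdr* and *Tek*, was 37.3 to 42.9 CPM in Ter+neo and 38.9 and 39.9 in Ter, against 26.7 CPM in each WT library. None of these genes was at 0. Called higher than WT were 5 of the 6 in Ter+neo and 2 in Ter, beside 27.7% and 14.1% of all genes, and 0 were lower. In Ter, *Cdh5* was not called, and the call of *Tek* was lost without any 1 of the Ter or WT libraries. In Ter+neo, the call of *Cdh5* was lost with limma voom (adjusted p = 0.054), no mean-variance trend (0.0708) or thinned reads (0.056). It was also lost without Ter+neo replicate 7 (limma, adjusted p = 0.0964) or WT replicate 2. That of *Tek* in Ter+neo was lost without either WT library. Within Ter, replicate 4 had the higher sum and the lower *Rarb* level. Within Ter+neo, replicate 7 had both the highest sum (42.9 CPM) and the highest *Rarb* level (2.85 CPM). Replicate 5 of Ter+neo had a higher sum than replicate 6 (37.9 against 37.3 CPM) and a lower *Rarb* level (1.39 against 1.97 CPM). *Pdgfrb*, a pericyte and interstitial gene, was also higher in the mutant libraries, at 9.18 to 13.0 CPM in Ter+neo and 13.9 and 12.0 in Ter, against 3.42 and 2.99 in WT. Most of its list of 9 interstitial and peritubular markers did not follow it. In Ter+neo 2 were higher than WT, 1 lower and 6 not called, beside 54.4% of all genes called. Of the higher calls, that of *Pdgfra* was lost with limma voom (adjusted p = 0.0759), no mean-variance trend (0.113) or thinned reads (0.111). The lower call was lost with limma voom (adjusted p = 0.0627), no trend (0.134) or a GC and length trend removed (0.116). Both were also lost on leaving out either WT library. In Ter 1 was higher, 0 lower and 8 not called, beside 25.1%. *Dnmt3l* and *Nanos2* were named after their values were seen, while *Pdgfrb* is among the first 3 genes of its list. The part of endothelial, pericyte or interstitial cells in the *Rarb* difference was not tested. Sums of 10 Sertoli markers overlapped, with 27.4 to 34.2 CPM in Ter+neo, 31.3 and 37.8 in Ter, and 29.0 and 30.4 in WT. Those of 9 interstitial and peritubular markers were 45.6 to 73.2 CPM in Ter+neo, 57.4 and 108 in Ter, and 47.1 and 56.8 in WT. Mesonephric and coelomic epithelium markers (6 of 8 with a row) had sums of 85.0 to 105 CPM in Ter+neo and 140.3 and 163 in Ter, against 179.7 and 199 in WT. *Cdh1*, an adhesion gene that germ cells also use, made up most of that sum and was the only one of the 6 called lower, while 2 others (*Pax8* and *Krt19*) were higher in Ter+neo and 4 in Ter, those 2 included. The same shares of all genes, 54.4% and 25.1%, stand beside these counts. The call of *Cdh1* in Ter was lost without WT replicate 2 or Ter replicate 4. It was also lost with no mean-variance trend (limma, adjusted p = 0.115) or the same total per library (0.054). That of *Pax8* in Ter was lost without WT replicate 2 or Ter replicate 3. Those of *Pax2* and *Gata4* in Ter were lost without WT replicate 2 or either Ter library, with limma voom (0.0598 and 0.064) or with thinned reads (0.0511 and 0.056). The part of such epithelial cells in the differences of the retinoic acid genes was not tested.

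Compared per kb of exon, the same 5 genes led in each genotype, in a different order in each. In WT, *Rara* (14.0 ± 0.235 CPM per kb, mean ± SD, n = 2) and *Rxrb* (12.0 ± 0.759) came first, followed by *Aldh1a2* (11.4 ± 0.788), *Rarg* (8.42 ± 0.631), *Crabp1* (6.91 ± 1.37) and *Rdh10* (4.64 ± 0.346). *Aldh1a1* (1.27 ± 0.0565), *Cyp26b1* (0.331 ± 0.0665) and *Rarb* (0.0766 ± 0.00633) were far lower. The ranges of mean ± SD overlapped for *Rxrb* and *Aldh1a2* and for *Rarg* and *Crabp1*. In Ter+neo *Crabp1* came first, at 17.6 ± 0.896 (n = 3), ahead of *Aldh1a2* at 14.4 ± 1.42 and *Rara* at 9.13 ± 0.782. In Ter *Aldh1a2* came first, at 15.3 ± 0.784 (n = 2), ahead of *Rara* at 13.6 ± 0.558, *Rarg* at 10.6 ± 0.0187 and *Crabp1* at 10.3 ± 0.435. *Rarb* stayed among the lowest in the mutants, at 0.393 ± 0.140 in Ter+neo and 0.301 ± 0.0791 in Ter.

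The rest of the pathway was read from lists of 59 other genes, 49 with a row. Against WT, 14 of these were higher and 16 lower in Ter+neo, and 12 were higher and 5 lower in Ter. Between the mutants 3 were higher and 13 lower in Ter+neo. For single directions, 27.7% of all genes were higher and 26.7% lower in Ter+neo against WT, 14.1% higher and 11.0% lower in Ter against WT, and 12.5% higher and 15.2% lower in Ter+neo against Ter.

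Among genes known to respond to retinoic acid in embryos or germ cells, *Hoxb1*, *Foxa1*, *Hoxb4* and *Meiosin* were higher than WT in both mutants. Of 17 with a row, 8 were higher and 1 lower in Ter+neo than in WT, and 8 were higher and 0 lower in Ter, with median log2 fold changes of 0.59 and 0.44. With at least 2 libraries in each group, the count in Ter was lowest, at 4, with no mean-variance trend. There 13.8% of all genes were called in either direction. It was highest, at 11, with only both groups in the fit, beside 30.8% of all genes. The count fell on leaving out any 1 of the Ter or WT libraries, which leaves 1 library in that group. The share of all genes called fell there as well. In Ter+neo, also with at least 2 libraries in each group, higher genes numbered from 6 with limma voom to 9 without Ter+neo replicate 5. These settings called 51.7% and 53.9% of all genes in either direction. The count fell on leaving out either WT library. A filter on a mean log2 value of at least 1 left 12 of the 17 genes. Of these 12, 4 were higher in Ter+neo and 5 in Ter, and the others were not tested there.

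*Hoxb1*, a homeobox gene with known retinoic acid response elements, had 0.282, 0.884 and 0.614 CPM in Ter+neo and 0.639 and 0.774 CPM in Ter, against 0.0670 and 0.0225 CPM in WT. Its WT libraries held 3 and 1 read pairs, so that the log2 fold changes of 2.96 ± 0.49 in Ter+neo (limma, adjusted p = 0.000649) and 3.32 ± 0.54 in Ter (adjusted p = 0.00288) depend on the prior count. *Foxa1*, a forkhead factor gene, had 7.19, 7.89 and 9.88 CPM in Ter+neo and 7.04 and 6.63 CPM in Ter, against 2.55 and 2.0 CPM in WT. Its log2 fold change was 1.85 ± 0.17 in Ter+neo and 1.59 ± 0.18 in Ter, called in all alternatives. The mutant libraries of both genes were above both WT libraries.

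*Hoxb4* was higher by 1.13 ± 0.25 in Ter+neo (limma, adjusted p = 0.00306) and 1.49 ± 0.27 in Ter (0.00454). *Hoxb2* rose by 1.54 ± 0.48 in Ter (adjusted p = 0.0411), a call lost without Ter+neo replicate 6 or any 1 of the Ter or WT libraries, with limma voom (0.0899), with no mean-variance trend (0.0728) or with thinned reads (0.0701), and had 0.77 ± 0.44 in Ter+neo (adjusted p = 0.165). That difference was called without Ter+neo replicate 5 (0.0325). The mutants were not called different in *Hoxb2* (adjusted p = 0.215).

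Of the germ cell genes of this group, *Meiosin*, a partner of STRA8 at the start of meiosis, had 13.6, 17.3 and 17.6 CPM in Ter+neo and 14.0 and 17.2 CPM in Ter, against 10.7 and 11.4 CPM in WT. It rose by 0.54 ± 0.14 in Ter+neo (limma, adjusted p = 0.00706) and 0.49 ± 0.15 in Ter (0.0365), with no overlap with WT. Its call in Ter was lost without Ter replicate 4 (0.233) or either WT library (0.136 and 0.127), with limma voom (0.0934) or with no trend (0.102), and that in Ter+neo without WT replicate 1 (0.0541). *Meioc*, needed in mice to sustain the meiotic programme, rose by 0.70 ± 0.10 in Ter+neo (adjusted p = 0.000229) and was not called in Ter (0.26 ± 0.11, 0.0929). *Rec8*, a meiotic cohesin gene, fell by 0.40 in Ter+neo (SE 0.12, adjusted p = 0.014) and had 0.12 ± 0.13 in Ter. The fall was not called without WT replicate 2 (0.115).

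*Stra8*, the gatekeeper gene of meiosis that retinoic acid induces, was not called in Ter+neo or in Ter. It had 2.10, 3.57 and 3.39 CPM in Ter+neo and 2.63 and 5.24 CPM in Ter, against 1.67 and 2.11 CPM in WT. Ter+neo replicate 5 overlapped WT and the Ter libraries did not. The log2 difference was 0.64 ± 0.31 in Ter+neo (limma, adjusted p = 0.102) and 0.97 ± 0.34 in Ter (adjusted p = 0.0583). It was called in Ter+neo without replicate 5 (0.88, adjusted p = 0.0208), and in Ter without Ter replicate 3 (1.46, 0.0287) or without Ter+neo replicate 5 (0.0248). Fitting Ter and WT alone (0.0181), scaling to the same total (0.0481) or thinning reads (0.0493) also gave the call in Ter.

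**Figure D4:**
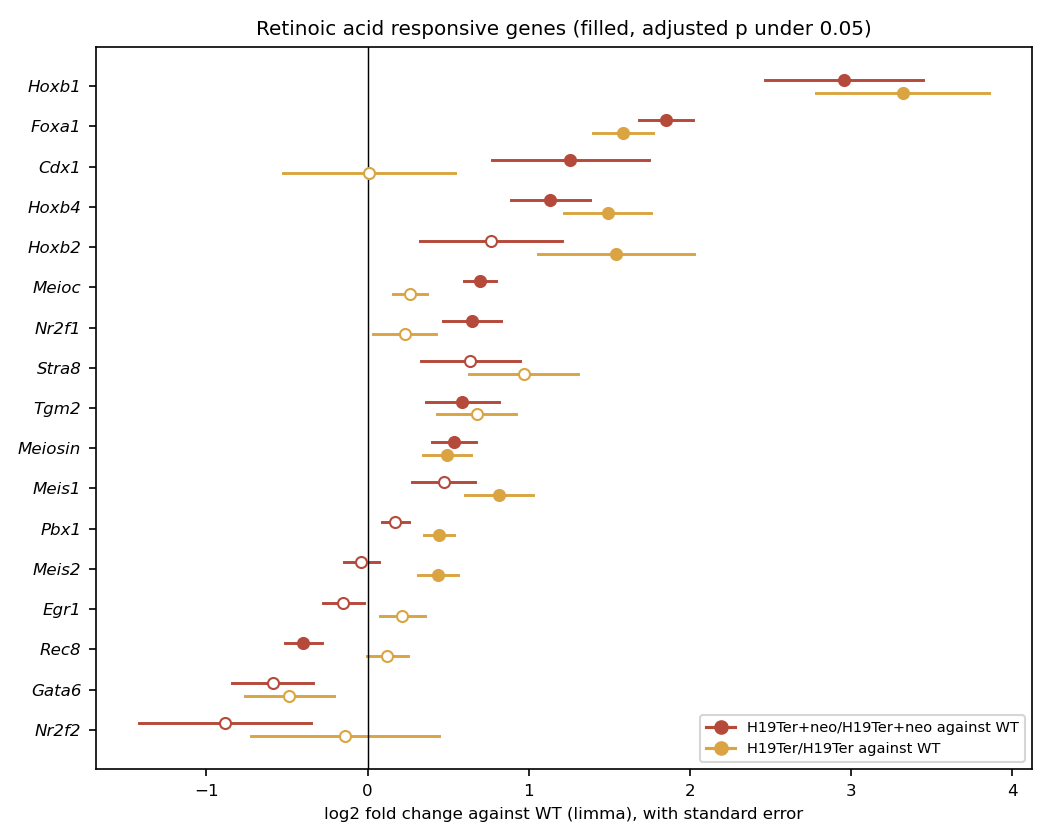
Log2 fold change against WT (limma, x axis, with standard error) of 17 retinoic acid responsive genes in Ter+neo (upper point of each set) and Ter (lower point). Filled points passed an adjusted p under 0.05; 8 genes are higher in each mutant, and *Rec8* is the only one called lower, in Ter+neo.

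Retinol carriers and enzymes upstream of retinoic acid moved both ways. *Rbp4*, the retinol carrier of plasma, rose by 1.32 ± 0.20 in Ter+neo (limma, adjusted p = 0.000399) and 1.05 ± 0.22 in Ter (0.00874), with 4.56, 3.72 and 4.54 CPM in Ter+neo and 3.63 and 3.43 in Ter, against 1.36 and 2.09 CPM in WT. *Bco1*, which cleaves beta-carotene to retinal, rose by 1.05 ± 0.24 in Ter+neo and 1.03 ± 0.27 in Ter. The short-chain reductase genes *Dhrs4* and *Dhrs7* were lower in both mutants, with log2 fold changes of -1.66 ± 0.27 (*Dhrs4*) and -1.28 ± 0.24 (*Dhrs7*) in Ter+neo and -1.25 ± 0.30 and -1.26 ± 0.26 in Ter. *Dhrs3*, which returns retinal to retinol, was lower in Ter+neo, at 0.724, 0.585 and 0.649 CPM, than in Ter, at 1.77 and 1.21 CPM, or WT, at 1.05 and 1.44 CPM (log2 fold change -0.89 ± 0.27 against WT, adjusted p = 0.0169, and -1.13 ± 0.27 against Ter, adjusted p = 0.0113). In Ter against WT the calls of *Dhrs4* and *Dhrs7* were lost without WT replicate 2 or Ter replicate 4, that of *Bco1* without WT replicate 2 or Ter replicate 3, with limma voom or with no trend, and that of *Rbp4* without Ter replicate 3 (adjusted p of 0.0504 to 0.136). The *Dhrs3* call against WT was lost without WT replicate 2 (0.139) or Ter+neo replicate 6 (0.0515) or with thinned reads (0.0546), and that against Ter without Ter replicate 3 (0.112).

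The other binding proteins and the second RXR gene changed in Ter+neo. *Fabp5*, whose product delivers retinoic acid to another class of nuclear receptor, rose by 1.08 ± 0.18 against WT (limma, adjusted p = 0.000611). *Crabp2*, which hands retinoic acid to RAR, had 4.73, 6.81 and 3.70 CPM in Ter+neo and 10.1 and 8.93 CPM in Ter, against 6.83 and 8.63 CPM in WT. It was called lower in Ter+neo than in WT (-0.64 ± 0.22, adjusted p = 0.0319) and than in Ter (-0.95 ± 0.22, adjusted p = 0.0111). *Rxra* was lower in Ter+neo, with log2 fold changes of -0.23 ± 0.08 against WT (adjusted p = 0.0239) and -0.46 ± 0.08 against Ter (adjusted p = 0.0021). None of the 3 was called in Ter against WT, with adjusted p of 0.0749 to 0.376. In some alternatives *Rxra* was called higher in Ter than in WT. These were only both groups in the fit (0.22, limma, adjusted p = 0.0321), the same total per library (0.30, 0.0373) and no Ter+neo replicate 5 (0.22, 0.0482). Against WT, the call of *Crabp2* was lost without WT replicate 2 (0.226) or Ter+neo replicate 7 (0.0775) or with no trend (0.0902), and that of *Rxra* without either WT library (0.133 and 0.0714), without Ter+neo replicate 5 (0.0596), with no trend (0.0757) or with the GC and length trend removed (0.488). Against Ter, the call of *Crabp2* was lost without Ter replicate 3 (0.0938) or with no trend (0.0567).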

How the data were processed

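Total RNA of sorted germ cells was depleted of ribosomal RNA and sequenced as directional paired-end libraries. Per the study's methods and the submitters' processing notes, the authors used Trim Galore 0.6.0 for trimming and STAR 2.7.8 for alignment to mm10 and gene counting, and deepTools and edgeR are also named. No source used here gives the strand setting of the counts. The deposited table holds log2 CPM, made by the authors with a mean prior count of 2 reads scaled to library size, so a log2 fold change understates the change of low genes. Undoing both gave whole read pairs for 100% of values, within a tolerance of 1e-06.

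The log2 values of all 20643 genes were fitted with limma 3.58.1 in R 4.3.3 (3 genotypes, mean-variance trend), two-sided, with Benjamini-Hochberg adjustment and a threshold of 0.05. The fit was first tested on simulated data. Fold changes compare mean log2 values. Of the IDs, 20610 are in GENCODE vM21, which gave coordinates and exonic lengths. Figures were drawn with matplotlib 3.10.9.

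The genes of interest and the lists were chosen with earlier results of these data known, and the responsive genes, markers and other lists were set from general knowledge. Some genes of these lists are not reported here and are left out of their counts. The rule for names was every listed retinoic acid gene, genes of other retinoid lists called in at least 1 comparison with at least 10 reads in 2 libraries, the first 3 genes of each marker list, and the 3 genes nearest in pattern to the widest ranging one. *Stra8*, *Top2b* and the genes with the promoter element are named beside it. So are *Dnmt3l*, *Nanos2*, *Piwil4*, *Cdh1*, *Krt19* and *Gata4* of the marker lists, after their values were seen. Alternatives were other scalings, prior counts, filters, models, thinning, a GC and length correction and leaving out libraries.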

Additional observations from a re-analysis of the deposited data

How the results depend on the processing

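The fold changes of the 9 genes in 3 comparisons were recomputed under 19 alternatives, 507 values in all. Of these 454 kept direction and call, 36 lost the call, 4 gained it, and 13, of 5 genes, turned sign with no call in either fit. None was called in the opposite direction. *Rarb* and *Cyp26b1* did not pass the filter on a mean log2 CPM of at least 1. The calls lost and gained by leaving out a library stand beside each gene, and the cause of each loss was not tested.

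Genes past the threshold in Ter against WT numbered 5187, but 3092 with limma voom and 2858 with no mean-variance trend, and 1408 to 5870 when 1 library was left out, fewest without WT replicate 2. In Ter+neo against WT they numbered 11231, and 7730 to 11118 with 1 library left out. In Ter+neo against Ter they numbered 5717, with 2326 to 5404 when 1 library was left out, fewest without Ter replicate 3, and 2550 without Ter replicate 3 and Ter+neo replicate 5 together, an alternative chosen after seeing the data. Of the 9 retinoic acid genes, the 5 called in Ter against WT became 1 with no trend, 2 without both of those libraries and 1 to 5 with 1 left out. The 5 in Ter+neo against WT became 4 to 6 with 1 left out. The 4 between the mutants became 2 with no trend, 2 with the GC and length trend removed, 2 without both libraries and 2 to 4 with 1 left out. A library left alone in its group was assumed to vary like the other groups.

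Scaling to the same total per library changed the balance of all genes. It gave 3454 higher and 1309 lower in Ter against WT (2914 and 2273 otherwise) and 1848 higher and 3930 lower in Ter+neo against Ter (2587 and 3130 otherwise). Fitting Ter and WT alone gave 3069 higher and 3286 lower. The direction of no call among the retinoic acid genes turned under these scalings. Low read counts limit *Rarb* in WT, at 17 and 19 read pairs, and *Hoxb1*. No paired analysis was possible because the replicate numbers run from 1 to 7 and no 2 genotypes share one.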

Other observations

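Coregulators of nuclear receptors were mostly lower in Ter+neo. Of 9 genes, 0 were higher and 7 lower in Ter+neo than in WT, 0 higher and 6 lower in Ter+neo than in Ter, and 1 higher and 3 lower in Ter than in WT, with medians of -0.36, -0.28 and -0.09 on the log2 scale. Over all genes tested, 26.7% were lower in Ter+neo than in WT, 15.2% lower in Ter+neo than in Ter and 11.0% lower in Ter than in WT. *Ncor1*, a corepressor that binds RAR when no ligand is present, had 160, 149 and 146 CPM in Ter+neo and 216 and 203 CPM in Ter, against 264 and 293 CPM in WT, with no overlap between genotypes (log2 fold change -0.88 ± 0.07 in Ter+neo and -0.41 ± 0.07 in Ter against WT, limma, adjusted p = 1.23e-05 and 0.00471).

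*Nrip1*, a ligand-dependent corepressor, was lower than WT in Ter+neo (-0.76 ± 0.11, limma, adjusted p = 0.000229) and in Ter (-0.65 ± 0.12, adjusted p = 0.00437). *Ncoa1*, a coactivator, was higher in Ter than in WT (0.57 ± 0.10, adjusted p = 0.00357), was not called in Ter+neo against WT (0.11 ± 0.09, adjusted p = 0.305), and differed between the mutants (-0.46 ± 0.09 in Ter+neo against Ter, adjusted p = 0.00462). The calls of *Ncor1* and *Nrip1* in Ter were lost without WT replicate 2 (adjusted p = 0.058 and 0.0549).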
